A study of Mus musculus with 18 samples.

Results

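Notch1, Notch2, Notch3, Jag1, Jag2, Hes1, Hey1, Hey2, Heyl and Lfng, 10 of the 55450 genes in the table, were taken by gene name and followed across 6 groups of mouse embryonic fibroblasts (MEF). The cells came from the American Type Culture Collection and were transiently transfected with the empty plasmid pcDNA3 (empty vector), with a plasmid that expresses miR-29b from the Col1a1 promoter (Col1a1-miR-29b), or with a plasmid that expresses it from the CMV promoter (CMV-miR-29b). Each plasmid was used without TGF-β and with TGF-β for 24 h, started 6 h after transfection, and each of the 6 groups had 3 libraries of poly(A) RNA. Both miR-29b plasmids also carry EGFP and mRFP1, which the empty vector lacks, so an effect of miR-29b and an effect of the rest of the plasmid cannot be told apart in a comparison with the empty vector. The paper dosed plasmids by moles, so the mass of DNA was larger for Col1a1-miR-29b than for CMV-miR-29b. An effect of DNA mass cannot be told apart from one of the plasmid either. The paper describes 3 repeated experiments per group, and where the cultures were not separate the p-values measure technical spread. In RNA from whole cultures, fewer cells that express a gene and less RNA per cell cannot be told apart.

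Notch receptors are cell surface proteins that are activated by ligands of the Jagged and Delta families on a neighbouring cell. The ligand exposes the receptor to cleavage by ADAM proteases and then by γ-secretase, which frees the intracellular domain to join RBPJ and Mastermind in the nucleus and switch on Hes and Hey genes, repressors of the basic helix-loop-helix family. Lunatic fringe (Lfng) adds sugars to the receptors and changes which ligands they answer to. In fibroblasts the pathway is known for its crosstalk with TGF-β signalling, and Jag1 and Hey1 are known as genes that TGF-β can induce in epithelial cells.

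MiR-29b is shown because it is the agent that the plasmids express, here as the mouse sequence with its seed (bases 2 to 8) in capitals. RefSeq places this mature sequence in GRCm38.p6 at chr6:31063025-31063047 on the minus strand (Mir29b-1) and at chr1:195037091-195037113 on the plus strand (Mir29b-2).
mmu-miR-29b-3p: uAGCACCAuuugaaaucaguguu
The 3′ UTRs of the 10 genes in the GENCODE annotation of GRCm38 were searched on the transcribed strand for the seed match TGGTGCT and for GGTGCT followed by A. Lfng held a match and the other 9 genes held 0, Jag1 with a longest 3′ UTR of 1568 bases among them. Over 20979 genes with a 3′ UTR, 16.6% held such a match. The Lfng match lies 343 bases after the stop codon. The stretch printed around it is chr5:140614803-140614830 on the plus strand, with the matched letters in capitals.
Lfng 3′ UTR match: gtctcttatgttggGGTGCTAgcaccta
The RefSeq table of promoter windows (GRCm38.p6, 250 bases before to 50 after each start) held 7 of the 10 genes: Notch1, Notch2, Notch3, Jag1, Jag2, Hey2 and Lfng. The windows were searched on both strands for TGGGAA, the core of the motif bound by RBPJ. Of all 32851 windows, 25.6% held it. Lfng and Hey2 held 2 matches each, and the other 5 windows held 0. The window of Jag1, the gene of the 10 with the largest response to TGF-β, is chr2:137116471-137116770 on the minus strand. That of Lfng, which held both kinds of match, is chr5:140607091-140607390 on the plus strand, with TGGGAA or its complement in capitals at −108 and −135 from the start.
Jag1 promoter window: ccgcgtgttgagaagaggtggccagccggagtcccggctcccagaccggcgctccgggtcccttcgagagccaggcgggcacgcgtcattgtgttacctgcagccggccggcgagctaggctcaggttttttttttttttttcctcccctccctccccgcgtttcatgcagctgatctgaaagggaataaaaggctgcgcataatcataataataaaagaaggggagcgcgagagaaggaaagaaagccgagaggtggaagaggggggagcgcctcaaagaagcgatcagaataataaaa
Lfng promoter window: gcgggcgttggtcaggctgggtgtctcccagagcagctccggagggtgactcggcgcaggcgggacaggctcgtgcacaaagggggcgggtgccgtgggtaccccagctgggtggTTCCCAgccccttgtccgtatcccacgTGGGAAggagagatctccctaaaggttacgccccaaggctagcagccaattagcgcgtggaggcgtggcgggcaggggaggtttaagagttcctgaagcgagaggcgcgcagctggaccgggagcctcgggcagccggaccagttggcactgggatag
CACGNG, a site bound by Hes and Hey proteins, was found in the windows of Notch2, Notch3, Jag2, Jag1 and Lfng, and in 27.5% of all windows. In Lfng a CACGNG match shares bases with a TGGGAA match. These matches describe letters and were not tested as binding sites.

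Total counts per library ran from 65898017 to 80332633, with a median of 74155860, and 21161 genes passed the expression filter, 9 of the 10 Notch genes among them. Counts at the mouse gene Mir29b-1 were 0 in all 6 empty vector libraries. They were 0 to 1 and 2 to 6 in Col1a1-miR-29b cells without and with TGF-β, and 110 to 309 and 203 to 293 in CMV-miR-29b cells. The paper gives the inserted sequence as human miR-29b-1, so any plasmid reads counted here were assigned to the mouse gene. Mature miR-29b was not measured in these poly(A) libraries. The TGF-β treatment was seen in Ccn2, a matricellular TGF-β target, which was raised by 1.74 ± 0.10 on the log2 scale (standard error) in empty vector cells, by 1.71 ± 0.10 in Col1a1-miR-29b cells and by 1.92 ± 0.10 in CMV-miR-29b cells. The feedback inhibitor Smad7 had a log2 fold change of 1.05 ± 0.30 under the empty vector (adjusted p = 0.0495, edgeR), 1.04 ± 0.30 under Col1a1-miR-29b (adjusted p = 0.0631) and 1.44 ± 0.30 under CMV-miR-29b (adjusted p = 0.00876). Of 10 fibroblast markers 8 were above 1 CPM (counts scaled to library size) in every library, while Thy1 had 0 to 8 counts and Lum had 0. The 10 summed to 2073 to 3008 CPM without TGF-β and 3757 to 5945 CPM with it. The summed level of 6 endothelial markers was 1.03 to 1.96 CPM in the libraries without TGF-β and 2.09 to 3.03 CPM in those with it, with Emcn at 0, and that of 6 epithelial markers was 0.267 to 1.39 CPM and 1.71 to 3.05 CPM, with Epcam at 0 to 4 counts. A set of 4 neural markers, most of it Tubb3, summed to 30.4 to 39.4 CPM without TGF-β and 51.0 to 61.9 CPM with it. The 5 immune markers summed to 9.36 to 13.9 CPM, mostly Cd68, with Cd3e at 0 to 2 counts. The 4 smooth muscle and pericyte markers summed to 5.87 to 9.66 CPM, and the 4 skeletal muscle markers, mostly Des with Myf5 at 0, to 13.5 to 21.3 CPM. The part of these markers in the results below was not tested.

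Levels of the 10 genes were ordered by FPKM, a measure per transcript length, in the 16 libraries whose FPKM column could be matched to a sample. Notch2 was highest with a median of 10.1 FPKM (8.66 to 12.0), followed by Notch3 with 6.36 (4.78 to 7.34), and their ranges did not overlap. Hes1 (median 4.82 FPKM, 2.67 to 8.09), Lfng (3.61, 2.78 to 4.57), Jag1 (2.49, 1.23 to 5.81) and Notch1 (2.12, 1.75 to 2.44) came next by these pooled medians, and each overlapped its neighbours in the order, Hes1 also with Notch3. The place of Jag1 turned with treatment. In empty vector cells without TGF-β it had 1.41 ± 0.17 FPKM (SD, n = 3), below the 2.24 ± 0.06 FPKM of Notch1, and with TGF-β it had 5.44 ± 0.42 FPKM, above the 2.03 ± 0.27 FPKM of Notch1 and the 3.66 ± 0.22 FPKM of Lfng. Jag2 had a median of 0.415 FPKM (0.311 to 0.561), apart from Notch1 above and Hey1 below. Hey1 (0.119 FPKM, 0.0281 to 0.278) and Hey2 (0.0553, 0 to 0.127) overlapped, and Heyl was listed at 0 in every library. Of the ligands Jag1 was above Jag2 on this scale, and of the targets Hes1 was above the Hey genes.

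**Figure D1:**
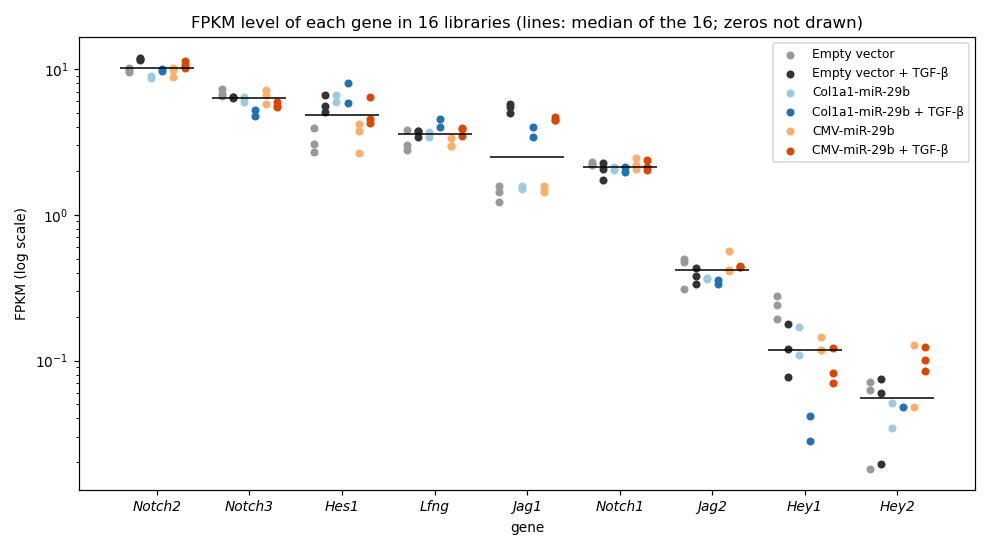
FPKM of the 9 detected genes on a log axis in 16 libraries, coloured by plasmid and treatment, with a line at the median of the 16. Notch2 sits highest with a median of 10.1, Hey2 lowest with 0.0553, and Jag1 splits into lower points without TGF-β and higher points with it.

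Jag1 (ENSMUSG00000027276, chr2:137081456-137116644, minus strand), the Notch ligand whose human counterpart is mutated in Alagille syndrome, rose with TGF-β under every plasmid. In empty vector cells its level was 10.3, 9.30 and 7.96 CPM without TGF-β and 37.2, 32.7 and 39.0 CPM with it. In Col1a1-miR-29b cells it was 10.1, 9.52 and 10.7 CPM without and 22.0, 26.4 and 27.8 CPM with TGF-β, and in CMV-miR-29b cells 9.68, 9.25 and 10.3 CPM without and 29.1, 30.8 and 29.3 CPM with it. The lowest treated library of all 9 was above the highest untreated library, and the 9 untreated libraries lay within 7.96 to 10.7 CPM. The log2 fold change was 1.98 ± 0.11 in empty vector cells (3.95-fold, edgeR quasi-likelihood test, Benjamini-Hochberg adjusted p = 1.04e-08), 1.33 ± 0.11 in Col1a1-miR-29b cells (2.52-fold, adjusted p = 9.71e-07) and 1.61 ± 0.11 in CMV-miR-29b cells (3.06-fold, adjusted p = 1.06e-07), where the error is the standard error. Averaged over the 3 plasmids it was 1.64 ± 0.06 (adjusted p = 3.55e-11), which ranked 586 among the absolute mean responses of 21161 genes.

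Jag2 (ENSMUSG00000002799, chr12:112907819-112929776, minus strand), the other Jagged ligand, was low and passed no test. Its mean level was 3.36 ± 0.80 CPM (SD, n = 3) in empty vector cells and 3.09 ± 0.42 CPM with TGF-β. It was 2.93 ± 0.22 and 2.70 ± 0.07 CPM in Col1a1-miR-29b cells, and 3.64 ± 0.65 and 3.46 ± 0.05 CPM in CMV-miR-29b cells. The libraries of the treated and untreated groups overlapped under the empty vector and CMV-miR-29b, and its mean response to TGF-β was −0.10 ± 0.10 on the log2 scale (adjusted p = 0.608, edgeR).

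**Figure D2:**
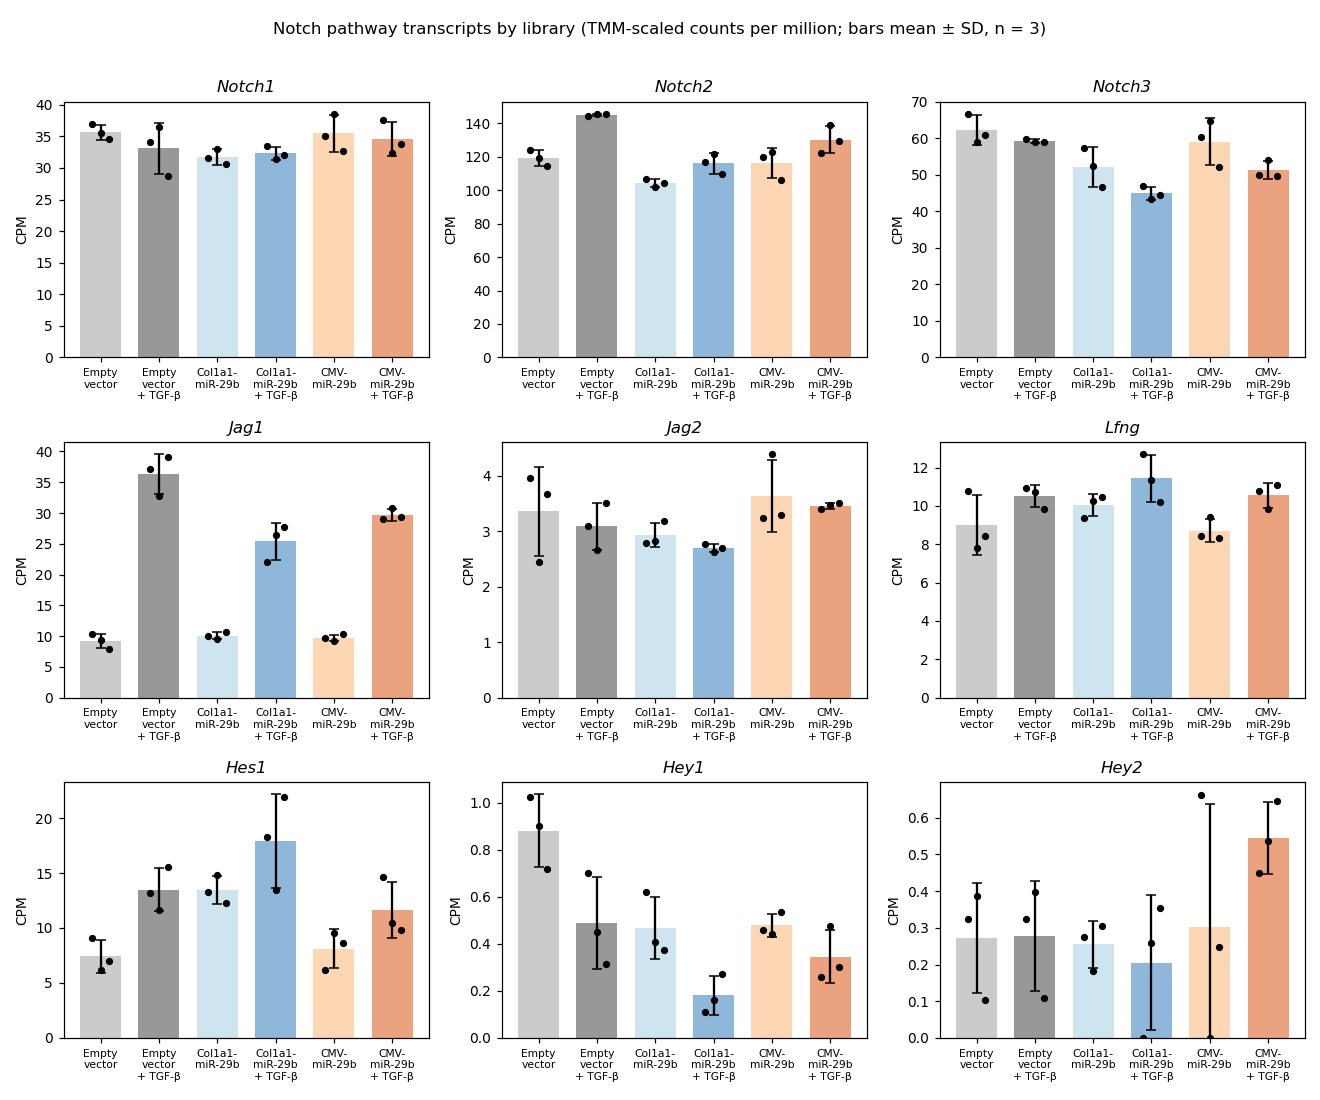
CPM of each of the 9 detected genes by group, with a point for each library, bars for the mean and error bars for the SD (n = 3). The treated Jag1 libraries lie between 22.0 and 39.0 CPM, all above the untreated ones, and the Hey2 panel shows 2 libraries at 0.

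Notch2 (ENSMUSG00000027878, chr3:98013527-98150361, plus strand) rose by a small amount with TGF-β in empty vector cells and on average over the plasmids. Its level was 124.2, 119.2 and 114.4 CPM in empty vector cells and 144.6, 145.5 and 145.5 CPM with TGF-β, with no overlap. In Col1a1-miR-29b cells the mean was 104.2 ± 2.2 CPM without and 116.0 ± 6.3 CPM with TGF-β, and it was 116.2 ± 8.9 and 130.3 ± 8.3 CPM in CMV-miR-29b cells, where the libraries overlapped. The log2 fold change was 0.28 ± 0.06 in empty vector cells (adjusted p = 0.00765, edgeR), 0.15 ± 0.06 in Col1a1-miR-29b cells (adjusted p = 0.211) and 0.16 ± 0.06 in CMV-miR-29b cells (adjusted p = 0.154). The average over the plasmids was 0.20 ± 0.03 (adjusted p = 0.000629). The call in empty vector cells was lost in 2 of the alternative fits, among them that without the untreated empty vector library e (0.24, adjusted p = 0.0619). Offsets for transcript length and GC content moved the value to 0.17 (adjusted p = 0.0404).

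Notch3 (ENSMUSG00000038146, chr17:32120820-32166852, minus strand), the receptor best known from mural cells, was lower with TGF-β on average over the plasmids by a small amount. Its mean was 62.2 ± 4.0 CPM in empty vector cells and 59.2 ± 0.5 CPM with TGF-β. The same means were 52.1 ± 5.4 and 45.0 ± 1.8 CPM in Col1a1-miR-29b cells, and 59.0 ± 6.4 and 51.3 ± 2.4 CPM in CMV-miR-29b cells, and treated and untreated libraries overlapped under each plasmid. The average log2 fold change was −0.16 ± 0.05 (adjusted p = 0.0323, edgeR), and no single plasmid passed the test (adjusted p = 0.777 in empty vector, 0.219 in Col1a1-miR-29b and 0.225 in CMV-miR-29b cells). The average lost its call without any of 10 libraries, with adjusted p from 0.0506 to 0.0685. These were c of the empty vector and e of the empty vector with TGF-β, c and d of Col1a1-miR-29b, d and the unlettered library of Col1a1-miR-29b with TGF-β, c and d of CMV-miR-29b, and c and e of CMV-miR-29b with TGF-β.

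Notch1 (ENSMUSG00000026923, chr2:26457903-26516663, minus strand) passed no test in any comparison. Its group means ran from 31.7 ± 1.2 CPM in Col1a1-miR-29b cells to 35.7 ± 1.2 CPM in empty vector cells, and the single libraries from 28.7 to 38.6 CPM. Its mean response to TGF-β was −0.04 ± 0.05 on the log2 scale (adjusted p = 0.719, edgeR). Reads of a gene and of an overlapping gene may be hard to tell apart, since it is not stated whether the counting used strand. Over Notch1 lies 0610009E02Rik on the opposite strand with 48 to 140 counts, and over Notch3 lies Gm17276 on the opposite strand with 3 to 63 counts, and neither passed the test in any comparison.

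Lfng (ENSMUSG00000029570, chr5:140607320-140615545, plus strand) had 10.8, 7.80 and 8.42 CPM in empty vector cells and 11.0, 10.7 and 9.85 CPM with TGF-β, which overlapped. In Col1a1-miR-29b cells the mean was 10.0 ± 0.6 CPM without and 11.4 ± 1.2 CPM with TGF-β, and in CMV-miR-29b cells 8.72 ± 0.62 and 10.6 ± 0.7 CPM, the only plasmid of the 3 under which the libraries did not overlap. Its response averaged over the plasmids was a rise of 0.23 ± 0.07 on the log2 scale (adjusted p = 0.0345, edgeR), while no single plasmid passed the test. That call was lost when any of 13 libraries was left out, with adjusted p from 0.0511 to 0.0821: d and e of the empty vector, c and d of the empty vector with TGF-β, c, d and the unlettered library of Col1a1-miR-29b, c and d of Col1a1-miR-29b with TGF-β, c and e of CMV-miR-29b, and c and e of CMV-miR-29b with TGF-β. Lfng, the gene with the seed match, passed no comparison between plasmids.

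Hes1 (ENSMUSG00000022528, chr16:30064384-30067796, plus strand), the most widely used readout of Notch signalling, rose in empty vector cells given TGF-β. Its level was 9.05, 6.19 and 6.98 CPM without and 13.2, 11.7 and 15.6 CPM with TGF-β, with no overlap. In Col1a1-miR-29b cells it was 13.3, 14.8 and 12.3 CPM without and 18.3, 13.5 and 21.9 CPM with TGF-β, which overlapped, and in CMV-miR-29b cells 6.18, 9.57 and 8.60 CPM without and 14.6, 10.5 and 9.83 CPM with it, where the lowest treated library was just above the highest untreated one. The log2 fold change was 0.86 ± 0.21 in empty vector cells (1.82-fold, adjusted p = 0.0233, edgeR), 0.41 ± 0.21 in Col1a1-miR-29b cells (adjusted p = 0.412) and 0.52 ± 0.21 in CMV-miR-29b cells (adjusted p = 0.228), and on average 0.60 ± 0.12 (adjusted p = 0.00297). The call in empty vector cells was lost without the untreated library d (adjusted p = 0.113) or e (0.0963) or the treated library c (0.0569) or e (0.123), and it was lost when the 2 groups were compared alone (adjusted p = 0.0521).

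Hey1 (ENSMUSG00000040289, chr3:8663359-8667256, minus strand), a Notch target that is also known to respond to TGF-β and BMP signalling, ran opposite to Hes1 and fell with TGF-β on average. It had few reads: 82, 72 and 56 counts in empty vector cells and 50, 35 and 23 with TGF-β, 45, 31 and 27 counts in Col1a1-miR-29b cells and 8, 12 and 19 with TGF-β, and 36, 34 and 41 counts in CMV-miR-29b cells and 19, 31 and 22 with TGF-β. In CPM the treated libraries were all below the untreated ones under the empty vector and Col1a1-miR-29b, and overlapped under CMV-miR-29b. The log2 fold change was −0.85 ± 0.37 in empty vector cells (adjusted p = 0.244, edgeR), −1.37 ± 0.39 in Col1a1-miR-29b cells (adjusted p = 0.0657) and −0.47 ± 0.37 in CMV-miR-29b cells (adjusted p = 0.652). The average was −0.90 ± 0.22 (adjusted p = 0.0104), which ranked 1461 of 21161 in size.

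Hey2 (ENSMUSG00000019789, chr10:30832359-30842801, minus strand) had 0 to 52 counts per library and 2 libraries at 0, 1 of CMV-miR-29b and 1 of Col1a1-miR-29b with TGF-β. Its mean response of 0.18 ± 0.62 on the log2 scale had an error too wide to show a difference of the size seen for Hes1 (adjusted p = 0.916, edgeR). Heyl (ENSMUSG00000032744, chr4:123233556-123249875, plus strand) had 0 counts in all 18 libraries and was not tested, where a count of 0 allows up to 3 counts per library, which is 0.0374 to 0.0459 CPM. This limit covers counting error only.

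With TGF-β in empty vector cells, 3 of the 9 tested genes passed an adjusted p of 0.05, all higher (Notch2, Jag1 and Hes1), where 5.88% of all 21161 tested genes passed. Of the genes called there 65.9% were higher, or 53.1% when scaled by total counts. Jag1 was the single gene that passed in Col1a1-miR-29b cells, where 4.32% of all genes did, and in CMV-miR-29b cells, where 4.95% did. For the average over the plasmids 6 of 9 passed, 4 higher (Notch2, Jag1, Hes1 and Lfng) and 2 lower (Notch3 and Hey1), where 13.7% of all genes passed, 7.83% higher and 5.86% lower. Treated and untreated libraries did not overlap for 4 of the 9 genes under the empty vector (Notch2, Jag1, Hes1 and Hey1), as for 21% of all genes, for 4 under Col1a1-miR-29b (21.9%) and for 3 under CMV-miR-29b (20.9%). The median log2 fold change of the 9 genes was 0.18 in that average, beside −0.01 over all genes. The higher share of all genes called in the average was 57.2%, or 46.8% when scaled by total counts, under which the directions of the 6 called genes held and Lfng lost its call (adjusted p = 0.059). The calls in single plasmids do not show that the plasmids differ in their response, which was tested separately.

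**Figure D3:**
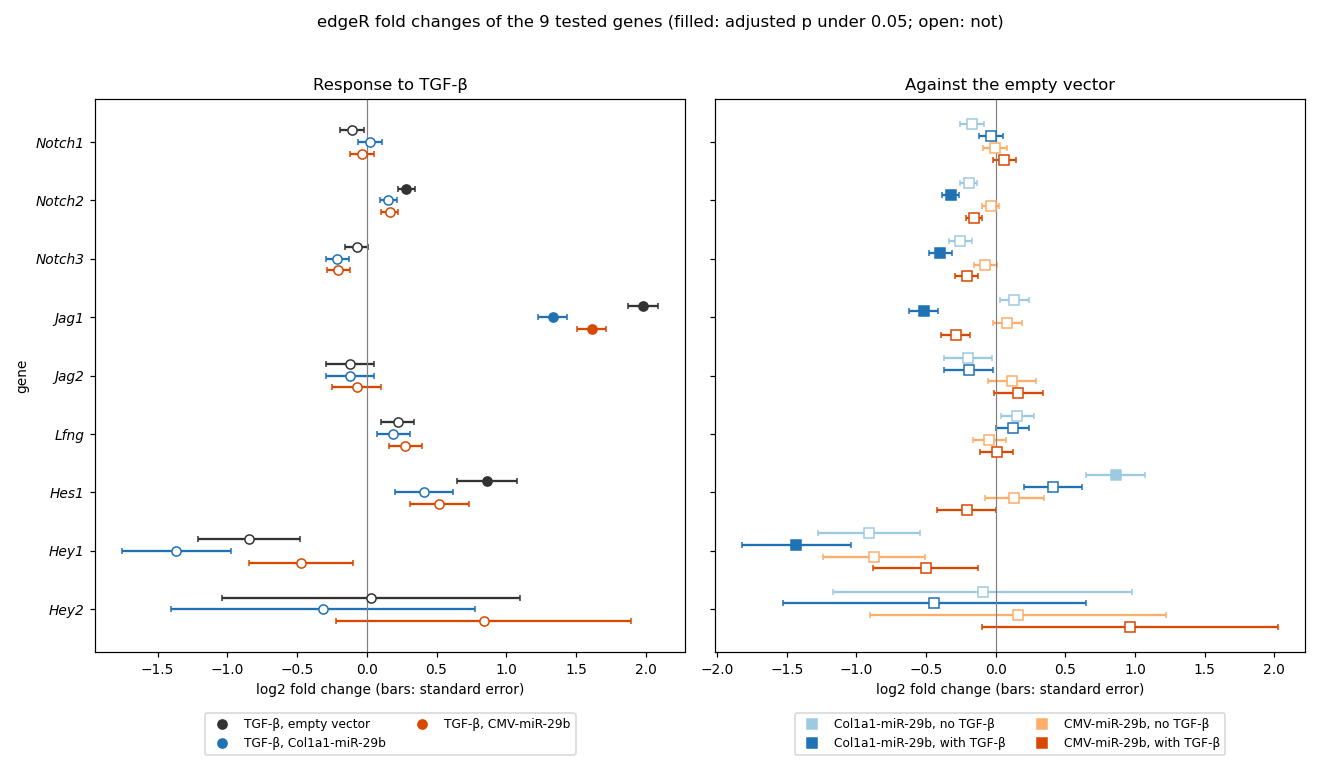
Fitted log2 fold changes of the 9 tested genes with standard errors, for the response to TGF-β under each plasmid (circles) and for each miR-29b plasmid against the empty vector (squares), with filled marks where the adjusted p was under 0.05. Jag1 has filled circles under each plasmid (1.98, 1.33 and 1.61), and 4 genes have a filled square for Col1a1-miR-29b with TGF-β.

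The comparison of Col1a1-miR-29b with the empty vector asks what the Col1a1-driven plasmid changes. Without TGF-β, Hes1 was higher by 0.86 ± 0.21 on the log2 scale (adjusted p = 0.0275, edgeR), and it was the only gene of the 9 that passed, where 6.27% of all genes did. The higher share of those was 40.9%, or 51.4% when scaled by total counts. Its 3 Col1a1-miR-29b libraries (12.3 to 14.8 CPM) lay above its 3 empty vector libraries (6.19 to 9.05 CPM). The libraries did not overlap for 5 of the 9 genes, Notch1, Notch2, Notch3 and Hey1 also, as for 29% of all genes. The call was lost without the empty vector library d (adjusted p = 0.111) or e (0.0758) or the Col1a1-miR-29b library c (0.0594), d (0.106) or the unlettered one (0.0523). In this comparison the receptors Notch2 (−0.19 ± 0.06, adjusted p = 0.0641) and Notch3 (−0.26 ± 0.08, adjusted p = 0.0794) missed the threshold with edgeR and passed it with DESeq2 (adjusted p = 0.0209 and 0.0249), which called 11.1% of all genes here. Notch3 also passed it without the Col1a1-miR-29b library c (−0.34, adjusted p = 0.0445).

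With TGF-β present, 4 of the 9 genes were lower in Col1a1-miR-29b cells than in empty vector cells and 0 were higher, where 12.9% of all genes passed the test and 7.63% were lower. Jag1 was lower by a log2 fold change of −0.52 ± 0.10 (adjusted p = 0.00458, edgeR), with 22.0 to 27.8 CPM against 32.7 to 39.0 CPM. Notch2 was lower by −0.32 ± 0.06 (adjusted p = 0.00281), with 109.4 to 121.9 CPM against 144.6 to 145.5 CPM, and Notch3 by −0.40 ± 0.08 (adjusted p = 0.00585), with 43.5 to 46.9 CPM against 58.9 to 59.8 CPM. Hey1 was lower by −1.43 ± 0.39 (adjusted p = 0.0246), with 0.108 to 0.270 CPM against 0.316 to 0.702 CPM, and these 4 were the genes of the 9 whose libraries did not overlap, as for 30% of all genes. The Hey1 call was lost without the empty vector library c with TGF-β (−1.09, adjusted p = 0.121) or the Col1a1-miR-29b library c (−1.17, adjusted p = 0.111) or d (−1.37, adjusted p = 0.0762) with TGF-β, and when the 2 groups were compared alone (adjusted p = 0.141). Offsets for transcript length and GC content moved Notch2 to −0.14 (adjusted p = 0.0789), and the longest transcripts of Notch1, Notch2 and Notch3 stood at percentiles 97.9, 98.6 and 96.2 of the tested genes by length. Hes1 was 17.9 ± 4.3 CPM in Col1a1-miR-29b cells and 13.5 ± 2.0 CPM in empty vector cells with TGF-β, and the groups overlapped (0.41 ± 0.21, adjusted p = 0.236). The higher share of all genes called in this comparison was 41.0%, or 52.6% when scaled by total counts.

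CMV-miR-29b, the plasmid with the most Mir29b-1 counts, gave 0 calls among the 9 genes against the empty vector with edgeR. That test called 0.00473% of all genes without TGF-β and 0.00945% with it. DESeq2 also gave 0 calls among the 9 genes without and with TGF-β, beside 0.203% and 1.29% of all genes. At an unadjusted p under 0.05 there were 1 and 3 of the 9 genes with edgeR, beside 5.46% and 12% of all genes. With TGF-β, Jag1 was 29.1 to 30.8 CPM in CMV-miR-29b cells, below the 32.7 to 39.0 CPM of the empty vector libraries, with a log2 fold change of −0.29 ± 0.10 (unadjusted p = 0.0134, adjusted p = 0.298). Notch2 (−0.16 ± 0.06, adjusted p = 0.322) and Notch3 (−0.21 ± 0.08, adjusted p = 0.335) also lay below the empty vector libraries in all 3 CMV-miR-29b libraries. The libraries of this comparison did not overlap for 4 of the 9 genes (15.9% of all genes), and without TGF-β for Hey1 (10.6%). Between the miR-29b plasmids edgeR called 0 of the 9 genes without TGF-β (1.81% of all genes) and 0 with it (1.93%), with 3 and 5 at an unadjusted p under 0.05 (16.4% and 15.6% of all genes). The libraries did not overlap for 2 (22% of all genes) and 5 (23.3%). DESeq2, which called 5.66% and 5.34% of all genes, called Hes1 in both, lower under CMV-miR-29b by −0.73 (adjusted p = 0.0147) and −0.62 (adjusted p = 0.0466) on the log2 scale.

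Whether the response to TGF-β itself differed between plasmids was tested as a difference of responses. The rise of Jag1 was smaller in Col1a1-miR-29b cells than in empty vector cells by −0.65 ± 0.15 on the log2 scale (unadjusted p = 0.000485), which did not pass after adjustment over all genes (adjusted p = 0.655, edgeR), and in CMV-miR-29b cells the difference was −0.37 ± 0.15 (unadjusted p = 0.023, adjusted p = 0.922). EdgeR called 0 of all 21161 genes for either difference, with 961 and 1129 at an unadjusted p under 0.05, and DESeq2 called 27 and 19. With DESeq2 the Jag1 difference for Col1a1-miR-29b was −0.64 with an adjusted p of 0.044. Over the other edgeR fits the adjusted p of that difference ran from 0.263 to 1 and its value from −0.73 to −0.55. Jag1 was the only gene of the 9 with an unadjusted p under 0.05 for either difference. The 2 differences share the empty vector libraries.

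Other genes of the pathway were counted in a list of 61, of which 55 were tested. For the average response to TGF-β 13 passed, 9 higher and 4 lower, beside 13.7% of all genes (7.83% higher and 5.86% lower), with a median log2 fold change of 0.01 over the 55. Among receptors and ligands, the receptor Notch4, known from endothelium, rose by 1.13 ± 0.11 on the log2 scale (adjusted p under each plasmid at most 0.00481), from 4.11 ± 0.23 to 7.99 ± 1.92 CPM in empty vector cells. The low endothelial marker sums given above were also higher with TGF-β, at 2.09 to 3.03 CPM. Whether they bear on the rise of Notch4 was not tested. The Delta ligands were near or at the floor, with Dll1 at 0 to 20 counts, Dll3 at 0 to 13 and Dll4 at 0 to 49. Delta-like genes outside the canonical ligands were Dlk2, which passed in CMV-miR-29b cells (−0.47 ± 0.12, adjusted p = 0.04), and Dlk1 and Dner, with at most 4 and 12 counts.

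Among cleavage enzymes Furin, the protease that cuts the receptor on its way to the surface, rose by 0.61 ± 0.05 on the log2 scale, and the other 9, the ADAM proteases and γ-secretase subunits among them, did not pass. Of 9 genes of the nuclear complex 4 passed, beside the same 13.7% of all genes. RBPJ itself (Rbpj) rose by 0.37 ± 0.05, from 313.7 ± 20.5 to 400.6 ± 41.2 CPM in empty vector cells. The coactivator Maml3 rose by 0.53 ± 0.17 (adjusted p = 0.0497, edgeR). Its mean went from 2.66 ± 0.15 to 5.05 ± 1.67 CPM in empty vector cells. It went from 1.53 ± 0.72 to 1.90 ± 0.11 CPM in Col1a1-miR-29b cells and from 2.21 ± 0.42 to 2.81 ± 0.52 CPM in CMV-miR-29b cells. The acetyltransferases Kat2a and Kat2b fell by 0.13 ± 0.02 and 0.24 ± 0.04. Among the corepressors Ctbp2 (0.34 ± 0.04) and Tle3 (0.30 ± 0.05) rose and Tle4 fell by 0.28 ± 0.06. Of 13 genes of ligand endocytosis and receptor turnover, Dtx4 rose by 0.35 ± 0.06, Numbl rose by 0.16 ± 0.04 and Neurl1a fell by 0.36 ± 0.08. None of the 5 glycosylation genes and none of the 4 tested of 6 other targets (Hes2, Hes6, Hes7 and Nrarp) passed with edgeR for the average response.

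**Figure D4:**
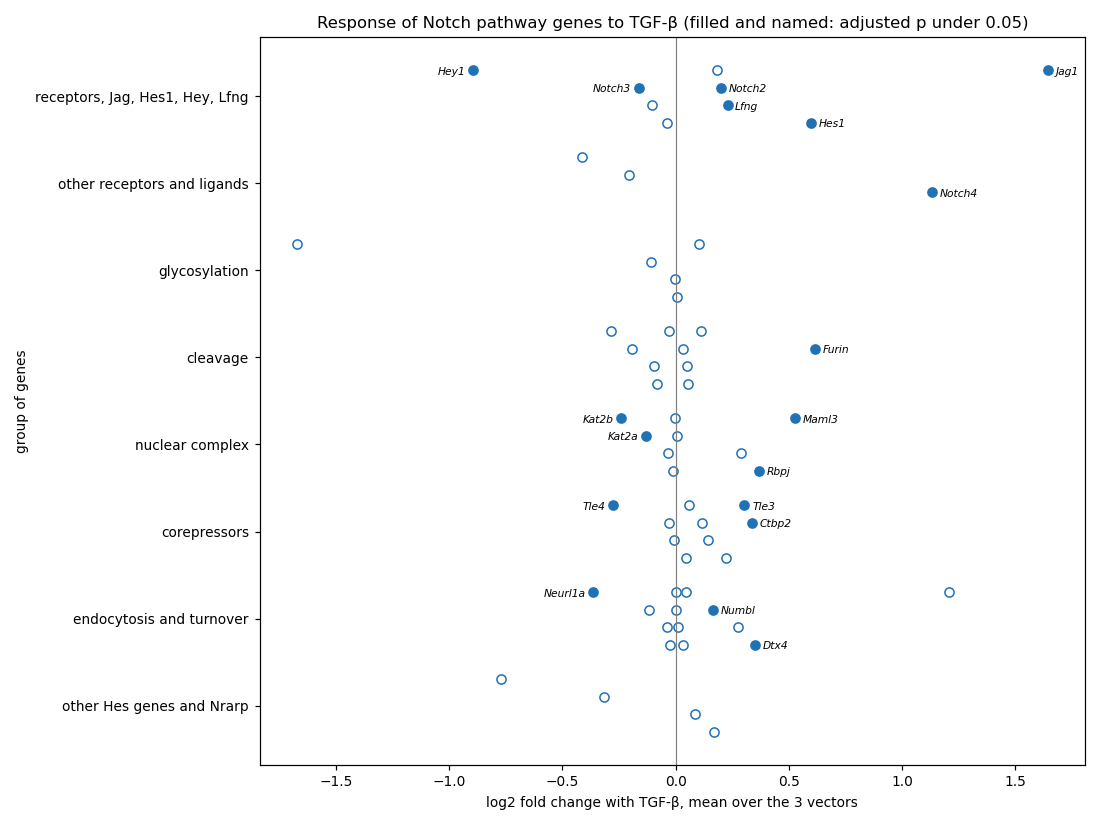
Log2 fold change with TGF-β averaged over the 3 plasmids, for the 9 tested genes (top row) and other Notch pathway genes in rows by role, where filled, named points have an adjusted p under 0.05. Jag1 (1.64) and Notch4 (1.13) lie furthest right among the named points and Hey1 (−0.90) furthest left.

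Between Col1a1-miR-29b and the empty vector with TGF-β, 14 of the 55 passed, 5 higher and 9 lower, beside 12.9% of all genes (7.63% lower), whose split moved with scaling as given above. In the nuclear complex 5 of 9 genes passed, 4 lower and 1 higher. Maml2 (−1.18 ± 0.26), Maml3 (−1.41 ± 0.29), Rbpj (−0.31 ± 0.08) and Crebbp (−0.30 ± 0.05) were lower on the log2 scale, and Kat2a was higher by 0.24 ± 0.04. Maml3 had 1.90 ± 0.11 CPM in Col1a1-miR-29b and 5.05 ± 1.67 CPM in empty vector cells with TGF-β. Nrarp, a Notch target that dampens the pathway, was higher by 0.73 ± 0.18 (adjusted p = 0.0147, edgeR), with 11.1 ± 0.8 against 6.69 ± 1.67 CPM. Of the 13 genes of endocytosis and turnover 5 passed. Dtx3l, of the Deltex family of ubiquitin ligases, was higher by 0.30 ± 0.06, and 4 were lower: Dtx4 (−0.58 ± 0.10), Mib2 (−0.30 ± 0.07), Itch (−0.22 ± 0.05) and Fbxw7 (−0.72 ± 0.19), the last part of the ligase that degrades the Notch intracellular domain. Without TGF-β 6 of the 55 passed, 2 higher and 4 lower, beside 6.27% of all genes, with Rbpj lower by −0.35 ± 0.08. Against the empty vector, CMV-miR-29b gave 0 calls of 55 with edgeR without and with TGF-β, beside 0.00473% and 0.00945% of all genes.

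The genes whose level followed Jag1 most closely over the 18 libraries, by Pearson's r of log2 CPM among 13911 genes with a mean of at least 1 CPM, were Acsbg1 (r = 0.990), the hyaluronan synthase Has2 (r = 0.989) and Ldlrad4 (r = 0.989), a gene of a membrane protein that restrains TGF-β signalling. Their mean responses to TGF-β were 2.63, 2.72 and 1.83 on the log2 scale. For Hey1 the closest were Exoc6 (r = 0.901) and Tbl2 (r = 0.873), with mean responses of −0.24 and −0.15. The libraries share the treatment and plasmids, so these values describe likeness across the groups and within them together.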

How the data were processed

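Poly(A) RNA of 18 MEF libraries was sequenced from stranded TruSeq libraries. The deposited table holds gene counts, whole numbers without normalization, and FPKM values, both made by the authors, who trimmed reads with cutadapt, checked them with FastQC, mapped them with HISAT2 and assembled them with StringTie, without versions in the sources used here. How counts were taken from the assemblies, and with which strand setting, is not given in the sources used here. Of counts from 1 to 40, 35.2% were multiples of 4, so the counts carry error beyond single reads, and an alternative divided them by 4. FPKM values of 0.0001, which stand for 0 in the deposited table, were read as 0. The submitters' processing notes name mm9, but the coordinates of 52506 of the 55450 genes were identical to GENCODE's annotation of GRCm38, the build printed here. The deposited columns of the authors' own comparisons (fold changes and p-values) and pathway annotations were not used.

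In both Col1a1-miR-29b groups 1 column has a letter found in no sample title. It was used as an unlettered library of its group for counts, and 2 columns of FPKM values were not used.

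Counts were tested with edgeR 4.0.16 in R 4.3.3 (filterByExpr, TMM, 6 group means over 18 libraries, quasi-likelihood tests, p-values adjusted by Benjamini-Hochberg over 21161 genes, threshold 0.05). Standard errors came from the F statistic, CPM used TMM library sizes, and the test was checked on simulated counts. Alternatives were DESeq2 1.42.0, 2 other scalings, a filter of 1 count, groups alone, counts divided by 4, a replicate block and leaving out each library. Those without the unlettered libraries and with length and GC offsets were chosen after seeing the data. The genes, pathway and marker lists were chosen with earlier results of these data known. Named were the 10 genes, pathway genes past the threshold (at most 4 per list by smallest adjusted p in the mean response) and, for the genes with the largest mean responses, the 3 closest by correlation. A few genes that this rule names are not reported here. Maml2, Crebbp, Dtx3l, Mib2, Itch, Fbxw7 and the Delta-like genes were named after their values were seen. Limits from counts cover counting error only.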

Additional observations from a re-analysis of the deposited data

How the results depend on the processing

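No called value of the 9 tested genes changed direction. All 322 values of their calls under the alternatives kept their sign, and of 1613 values that were not called, 72 turned. The other pathway genes were not followed under the alternatives. Jag1 kept its calls for TGF-β under each plasmid and on average under every alternative run. With DESeq2 the number of the 9 genes called became 2 for TGF-β in Col1a1-miR-29b cells (1 with edgeR), 3 for Col1a1-miR-29b against the empty vector without TGF-β (1 with edgeR), and 1 for both comparisons of the miR-29b plasmids and for the difference in response of Col1a1-miR-29b (0 with edgeR). DESeq2 also called more of all genes in these comparisons, 6.2%, 11.1%, 5.66%, 5.34% and 0.128% in that order. Counts divided by 4 gave 2 for Col1a1-miR-29b against the empty vector without TGF-β, where 1658 of all genes were called (1327 as reported). Leaving out the unlettered libraries gave 0, where 397 of all genes were called. With length and GC offsets 2 genes were called for TGF-β in Col1a1-miR-29b and in CMV-miR-29b cells, Notch3 being the added gene in both. Over all genes 906 and 1125 were called there. Leaving out 1 library gave 1 to 3 for TGF-β in empty vector cells, 1 to 2 in Col1a1-miR-29b cells and 4 to 6 for the average response. Over all genes these fits called 725 to 1428, 630 to 679 and 2591 to 2982 in that order. For Col1a1-miR-29b against the empty vector the result was 0 to 1 without TGF-β, beside 468 to 1043 of all genes. With TGF-β it was 3 to 4, beside 1291 to 3182 of all genes.

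Whether samples of the same letter came from the same experiment is not stated. Their deviations from group means had a mean correlation of 0.0054 over 36 pairs, beside −0.0027 over 70 pairs of different letters. These means cannot show that the samples were unpaired. A replicate block on the 16 lettered libraries gave 0 calls for Col1a1-miR-29b against the empty vector without TGF-β (Hes1 0.93, adjusted p = 0.0906, edgeR). It gave 5 for the average response (Lfng adjusted p = 0.0516, edgeR) and changed no other call of the 9 genes. Over all genes the block called 161 in the first of these (1327 as reported) and 2170 in the second (2897). The same 16 libraries without the block called 397 and 2339. The block with length and GC offsets gave 2 for TGF-β in Col1a1-miR-29b and in CMV-miR-29b cells. It gave 0 for Col1a1-miR-29b against the empty vector without TGF-β and 2 with TGF-β, where Jag1 was −0.51 (adjusted p = 0.0588, edgeR). Over all genes it called 393, 866, 132 and 676 in that order. The cause of these changes was not tested.

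Counts over all genes also moved. Those for TGF-β were 618 to 1759 in empty vector cells (1245 as reported), 393 to 1313 in Col1a1-miR-29b cells (914) and 527 to 1496 in CMV-miR-29b cells (1047). Those for Col1a1-miR-29b against the empty vector were 132 to 2346 without TGF-β (1327) and 676 to 3519 with it (2738), and those for CMV-miR-29b 0 to 43 (1) and 1 to 274 (2). Between the miR-29b plasmids they were 18 to 1198 (382) and 10 to 1129 (408). Hey1 and Hey2 had at most 82 and 52 counts per library, and Hey2 ran from 0 to 52 counts within the CMV-miR-29b group, so its libraries also differed widely among themselves.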
